A study of Mus musculus with 374 samples.

Results

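The genes described here encode surface proteins of developing and mature T cells: the coreceptor genes Cd4, Cd8a and Cd8b1, the adhesion and costimulatory genes Cd2 and Cd28, the scavenger receptor family genes Cd5 and Cd6, and Thy1. They were chosen by name for their place on the T cell surface, with earlier results of these data known. All 8 had a row in the table, out of 19829 mouse genes. Single cells of 5 populations, sorted from 1 C57BL/6 female aged 10 to 13 weeks, were measured by CEL-seq2, which reads the 3' end of polyadenylated RNA and tags each captured molecule with a unique molecular identifier (UMI). The T lymphocytes (43 wells) came from the thymus and were gated as CD3+ and FSC-Alow, that is, of low forward scatter. The other populations came from the bone marrow of the same animal: B lymphocytes (44 wells, B220+ and FSC-Alow), erythroblasts (96 wells, Ter119+ CD44+ and FSC-Amid/high), granulocytes (96 wells, Mac1+ Gr1+) and progenitor/stem cells (95 wells, Lin- Kit+ Sca1+). No genotype or treatment beyond the strain is given in the labels. With 1 animal, each population is 1 sample, tissue and cell type cannot be told apart between T lymphocytes and the rest, and no test between populations was possible. All intervals are 95% exact intervals that cover counting error only.

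As background, a T cell recognises a peptide held by an MHC molecule through its T cell receptor, and the coreceptor decides which class of MHC it reads: CD4 binds class II, and CD8, usually a pair of an alpha chain (Cd8a) and a beta chain (Cd8b1), binds class I. Both coreceptors carry the kinase LCK to the engaged receptor. In the thymus most cells pass through a stage with both coreceptors before they keep 1 of them. CD28 gives the costimulatory signal on meeting CD80 or CD86, and CD2 holds the T cell to its partner. CD5 and CD6 dampen and tune receptor signalling, and THY1 is a GPI-anchored protein used as a T cell marker in mice, which is also found on some marrow progenitors.

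The genes lay on 5 chromosomes of GRCm38 (GENCODE M21), and no annotated gene overlapped any of them. Cd4 (ENSMUSG00000023274) spans chr6:124864692-124888221 on the minus strand. Cd8b1 (ENSMUSG00000053044, chr6:71322788-71337494) and Cd8a (ENSMUSG00000053977, chr6:71373427-71379173) are on the plus strand with 35932 bp and 4 genes between them. Cd5 (ENSMUSG00000024669, chr19:10717116-10739002) and Cd6 (ENSMUSG00000024670, chr19:10789341-10830058) are on the minus strand with 50338 bp and 1 gene between them. The remaining genes are Cd2 (ENSMUSG00000027863, chr3:101275899-101287939, minus strand), Cd28 (ENSMUSG00000026012, chr1:60716800-60773359, plus strand) and Thy1 (ENSMUSG00000032011, chr9:44043384-44048579, plus strand). These regions run from the first to the last base of the gene, exons and introns together.

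RefSeq promoter windows (GRCm38.p6, 250 bases before to 50 after the start) were matched for only 2 of the 8 genes, Cd8a and Cd5, and both are shown. The Cd8a window is chr6:71373177-71373476 on the plus strand and the Cd5 window is chr19:10738925-10739224 on the minus strand, each written 5' to 3'. Capitals mark matches, on either strand, to GATAA for GATA factors, to GGAAG for ETS factors, to TGTGGT and its variant form TGCGGT for RUNX factors, to CTTTGA for the TCF and LEF family, and to CAGCTG for E-box proteins.
Cd8a: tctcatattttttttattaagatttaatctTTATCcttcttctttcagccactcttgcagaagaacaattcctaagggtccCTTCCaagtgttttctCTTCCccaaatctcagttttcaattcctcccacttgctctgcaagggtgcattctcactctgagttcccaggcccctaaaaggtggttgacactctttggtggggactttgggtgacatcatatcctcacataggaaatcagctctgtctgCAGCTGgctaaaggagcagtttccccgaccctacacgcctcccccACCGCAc
Cd5: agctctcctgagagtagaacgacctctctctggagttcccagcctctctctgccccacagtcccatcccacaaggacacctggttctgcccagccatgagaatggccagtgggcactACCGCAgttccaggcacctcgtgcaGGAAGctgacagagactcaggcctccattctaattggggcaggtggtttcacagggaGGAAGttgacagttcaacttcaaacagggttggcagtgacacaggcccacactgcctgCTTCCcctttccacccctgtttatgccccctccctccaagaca
Counted from the first base of the window, Cd8a held the GATA letters at 31, the ETS letters at 82 and 98, the E-box letters at 249 and the RUNX variant at 294. Cd5 held the RUNX variant at 118 and the ETS letters at 143, 200 and 258. Of 32851 RefSeq promoter windows, 71.4% held the ETS letters, 25.4% the GATA letters, 16.8% the first RUNX form, 16.3% the E-box letters, 16.0% the TCF and LEF letters and 6.45% the RUNX variant. Both windows held the ETS letters and the RUNX variant, the most and the least frequent of these motifs. Neither held the first RUNX form. No match overlapped another, and a match is a description of the letters only.

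The T lymphocyte wells held 200396 UMIs on mouse genes, with 426 to 10874 per well and a median of 4347. Median depth in the other populations was between 3028.5 UMIs (B lymphocytes) and 7959 UMIs (progenitor/stem cells), and the 374 wells had 374 distinct barcodes. The label was checked with 8 T lymphocyte markers that are not among the genes described (Cd3d, Cd3e, Cd3g, Trac, Trbc1, Trbc2, Lck and Tcf7). They took 0.706% of the UMIs of the T lymphocytes and at most 0.0176%, in the granulocytes, of any other population. T well P4, the shallowest at 426 UMIs, had no UMI of these markers or of the 8 genes. B lymphocyte well B2 had CD3 fluorescence within the range of the T wells, and well A8 had Gr1 fluorescence within the range of the granulocytes. Both were kept under their label. Markers of other cells in the T wells were low or shared by all populations. The 4 measured dendritic cell markers were at 0, and the 5 macrophage markers held 1 UMI. The 3 natural killer markers held 25 UMIs, nearly all Nkg7. Trdc, the gamma-delta receptor constant gene, held 3 UMIs in 3 wells, and Il2ra, the 1 regulatory T cell marker measured, held 2 UMIs in 1 well. B lymphocyte markers took 0.0309% of T lymphocyte UMIs, granulocyte markers 0.365% and erythroblast markers 1.84%, with a range of 0.808% to 12.0% between T wells for the last. Their part in the results was not tested.

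All 8 genes were at their highest in the thymic T lymphocytes. Summed over a population and expressed per 1000000 UMIs of mouse genes (CPM), the T lymphocytes held 3528 CPM of them (interval 3273 to 3798), compared with 198.8 CPM in the B lymphocytes, 79.1 CPM in the progenitor/stem cells, 57.0 CPM in the granulocytes and 34.5 CPM in the erythroblasts. The ratio of T lymphocytes to another population was thus 17.7-fold (12.1 to 27.1) for the B lymphocytes, 44.6-fold (34.6 to 58.3) for the progenitor/stem cells, 61.9-fold (40.9 to 98.3) for the granulocytes and 102.3-fold (67.6 to 162.4) for the erythroblasts. A T well held a median of 16 UMIs of these genes (0 to 58), and 42 of 43 T wells held at least 1.

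At least 4-fold higher CPM in T lymphocytes than in another population, with sums under 3 UMIs set to 3, was met by all 8 genes against every other population. Among all genes with at least 10 UMIs in the pair, 4.06% met it against the B lymphocytes, 3.48% against the progenitor/stem cells, 14.4% against the granulocytes and 21.0% against the erythroblasts. Against all 4 at once, 0.840% of 11667 genes with at least 10 UMIs over the 5 populations met it. Another population was at least 4-fold higher than the T lymphocytes for 10.7% of these genes and for 0 of the 8. The floor of 3 UMIs is 22.1 CPM in the B lymphocytes, so genes with few T lymphocyte UMIs could not reach 4-fold over it. This lowers the shares against the B lymphocytes and against all 4. The 8 genes held 53 to 135 UMIs, and a share among genes of like abundance was not computed. They were chosen with earlier results of these data known, so these shares are a description and no independent test. The median log2 ratio of the 8 genes was 3.89 against the B lymphocytes, 6.19 against the progenitor/stem cells, 5.49 against the granulocytes and 6.18 against the erythroblasts, where the medians over all genes were 0.25, -0.08, 0.59 and 0.49.

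**Figure D1:**
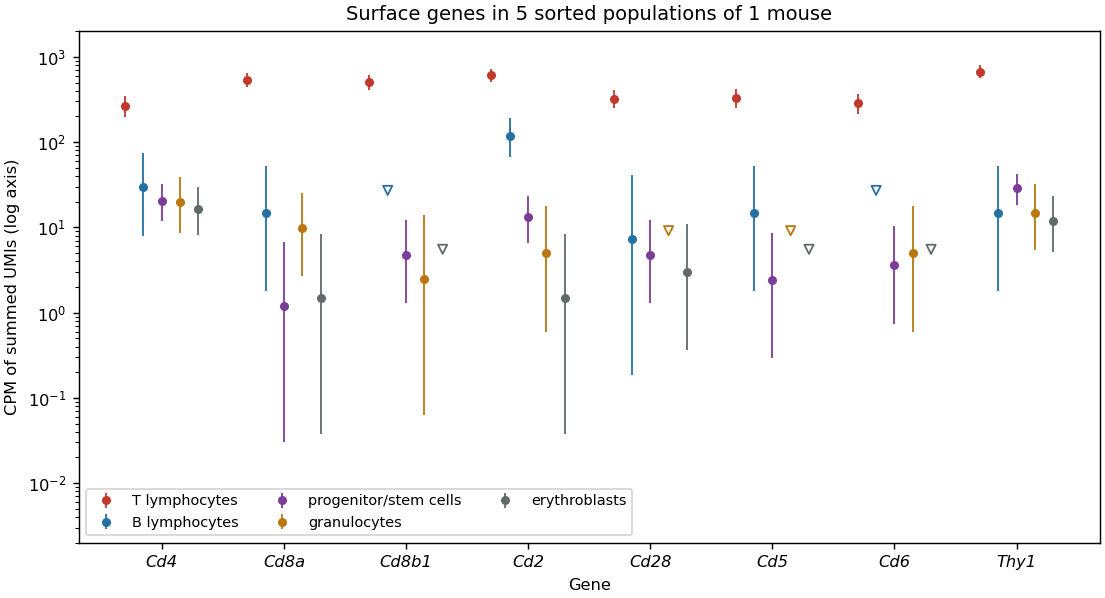
CPM of summed UMIs (log axis) of the 8 genes in each sorted population. Points are sums over the wells of a population with 95% exact Poisson intervals (counting error only), and open triangles mark the upper limit of the interval where a population held 0 UMIs. Every gene sits highest in the T lymphocytes, and Cd2 in the B lymphocytes, at 117.8 CPM, is the highest point outside them.

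Cd4, the class II coreceptor gene, reached 264.5 CPM (198.1 to 345.9) in the T lymphocytes from 53 UMIs, with 0 to 7 UMIs per well, a median of 1, and at least 1 UMI in 23 of 43 wells. Elsewhere it had 29.5 CPM (8.03 to 75.4) in B lymphocytes, 20.4 CPM (11.9 to 32.6) in the progenitor/stem cells, 19.8 CPM (8.56 to 39.1) in the granulocytes and 16.5 CPM (8.24 to 29.5) in the erythroblasts. The order among these 4 was not resolved, since their intervals overlapped. T lymphocytes were higher than the B lymphocytes by 8.98-fold (3.31 to 34.2) and than the erythroblasts by 16.0-fold (8.28 to 34.0). Cd4 UMIs were found in 15 of 95 progenitor/stem wells, 9 of 96 erythroblast wells, 8 of 96 granulocyte wells and 4 of 44 B lymphocyte wells. At 1000 UMIs per well, which left out 1 T, 1 B lymphocyte, 2 granulocyte and 1 erythroblast well as shallower, the expected share of wells with a Cd4 UMI was 22.9% for T lymphocytes, 3.22% for B lymphocytes, 2.33% for progenitor/stem cells, 2.03% for granulocytes and 1.72% for erythroblasts.

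Cd8a reached 538.9 CPM (442.1 to 650.7) in the T lymphocytes from 108 UMIs. Elsewhere it had 14.7 CPM (1.78 to 53.2) in B lymphocytes, 9.91 CPM (2.70 to 25.4) in granulocytes, 1.5 CPM (0.0380 to 8.36) in the erythroblasts and 1.20 CPM (0.0303 to 6.67) in the progenitor/stem cells. Cd8b1, the beta chain gene, reached 504.0 CPM (410.5 to 612.4) in the T lymphocytes from 101 UMIs, was at 4.79 CPM in the progenitor/stem cells (4 UMIs) and 2.48 CPM in the granulocytes (1 UMI), and had no UMI in the B lymphocytes or the erythroblasts. Taken as 3 wells of the total, a count of 0 allows a share of up to 6.82% of the B lymphocyte wells and up to 3.12% of the erythroblast wells with a UMI, and the exact upper limits are 8.04% and 3.77%. Where a population held 0 UMIs, its level was set to a floor of 3 UMIs over the population, which bounds the fold by the floor and not by the interval. Against that floor Cd8b1 was at least 22.8-fold higher in T lymphocytes than in B lymphocytes (exact lower limit of the ratio 18.2) and at least 112.0-fold higher than in erythroblasts (89.4). Either chain was detected in 19 of 43 T wells, and in 5 of 95 progenitor/stem wells, 5 of 96 granulocyte wells, 2 of 44 B lymphocyte wells and 1 of 96 erythroblast wells. No well outside the T lymphocytes held more than 1 UMI of the pair.

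Cd2, whose product binds CD48 in mice, was the gene with the smallest excess in T over B lymphocytes. It reached 608.8 CPM (505.6 to 726.9) from 122 UMIs in them, with 0 to 8 UMIs per well and a median of 3, and was detected in 34 of 43 wells. In the B lymphocytes it was at 117.8 CPM (67.3 to 191.3), in 12 of 44 wells with at most 2 UMIs each. The ratio of 5.17-fold (3.06 to 9.33) was the smallest of the 32 ratios of the 8 genes. Against the progenitor/stem cells, granulocytes and erythroblasts the smallest ratio was that of Cd4, at 13.0-, 13.3- and 16.0-fold. The B lymphocyte level of Cd2 was above that of the progenitor/stem cells (13.2 CPM, 6.58 to 23.6), the granulocytes (4.96 CPM, 0.600 to 17.9) and the erythroblasts (1.5 CPM, 0.0380 to 8.36) with no overlap of intervals. At 1000 UMIs per well the expected share of wells with a Cd2 UMI was 42.8% in T lymphocytes, 10.5% in B lymphocytes and 0.0983% in erythroblasts.

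Cd28, the costimulatory receptor gene, reached 324.4 CPM (250.3 to 413.4) in the T lymphocytes from 65 UMIs and was detected in 27 of 43 wells, with 0 to 6 UMIs and a median of 1. It held 1 UMI in the B lymphocytes, 4 in the progenitor/stem cells, 2 in the erythroblasts and 0 in the granulocytes. Against the floor of 3 UMIs in the granulocytes it was at least 43.6-fold higher in T lymphocytes, with an exact lower limit of the ratio of 34.5. The levels in the other 4 populations, at most 7.36 CPM (0.186 to 41.0), were not resolved from each other.

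Cd5 and Cd6, the neighbouring scavenger receptor genes, were each detected in 26 of 43 T wells. Cd5 reached 329.3 CPM (254.7 to 419.0) from 66 UMIs, with 0 to 9 per well and a median of 1. Cd6 reached 284.4 CPM (215.4 to 368.5) from 57 UMIs, with 0 to 6 per well and a median of 1. Both genes were found in 17 wells and neither in 8. Over the 43 wells, which differ in depth, their UMIs had a Pearson correlation of 0.58 and a Spearman correlation of 0.41. Outside the T lymphocytes Cd5 had 2 UMIs in the B lymphocytes, 2 in the progenitor/stem cells and none in the granulocytes and erythroblasts, and Cd6 had 3 in progenitor/stem cells, 2 in granulocytes and none in the B lymphocytes and erythroblasts. The B lymphocyte level of Cd5, 14.7 CPM (1.78 to 53.2), was below that of the T lymphocytes by 22.4-fold (5.95 to 188.5). Against the same floor in the erythroblasts Cd5 was at least 73.2-fold and Cd6 at least 63.2-fold higher in T lymphocytes, with exact lower limits of 57.9 and 49.8.

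Thy1 reached 673.7 CPM (564.8 to 797.4) in the T lymphocytes from 135 UMIs, with 0 to 19 per well and a median of 2, and was detected in 31 of 43 wells. The progenitor/stem cells followed with 28.7 CPM (18.4 to 42.8), from 24 UMIs in 20 of 95 wells. The granulocytes (14.9 CPM, 5.46 to 32.4), B lymphocytes (14.7 CPM, 1.78 to 53.2) and erythroblasts (12.0 CPM, 5.18 to 23.6) had intervals that overlapped each other and that of the progenitor/stem cells. Ratios between these populations were not computed. The share of wells was higher in the progenitor/stem cells (21.1%) than in the erythroblasts (7.29%), but the former were deeper, with medians of 7959 and 6113.5 UMIs. At 1000 UMIs per well the expected shares were 2.61% in progenitor/stem cells, 2.56% in granulocytes, 1.39% in erythroblasts and 42.3% in T lymphocytes.

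The UMIs outside the T lymphocytes were set beside those of the 8 T lymphocyte markers in the same populations. The markers held 6.36% of their T lymphocyte UMIs in progenitor/stem cells, 5.02% in granulocytes, 4.17% in erythroblasts and 1.13% in B lymphocytes. Relative to its ratio to the markers in T lymphocytes, Cd4 was 5.04 times as frequent in progenitor/stem cells (interval of the odds ratio 2.62 to 9.26), 4.97 times in erythroblasts (2.22 to 10.3), 3.01 times in granulocytes (1.19 to 6.68) and 6.67 times in B lymphocytes (1.56 to 21.6). Cd2 was 11.6 times as frequent in the B lymphocytes (5.27 to 25.3), and Thy1 2.79 times as frequent in the progenitor/stem cells (1.64 to 4.6). Cd8a was at 0.145 times its T lymphocyte ratio in the progenitor/stem cells (0.00361 to 0.850). Cd8b1, with 0 UMIs in the erythroblasts, had an upper bound of 0.921 there. For the other pairs of a gene and a population the interval included 1. The markers themselves can be transcribed in these cells, which was not tested.

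The wells outside the T lymphocytes with the most UMIs of the 8 genes held 7 and were both progenitor/stem cells, a total within the range of the T wells (0 to 58) and below their median of 16. Well K6 had 2 UMIs of Cd4, 3 of Cd2 and 2 of Thy1 among 14375 UMIs, with 6 UMIs of T lymphocyte markers and 44 of progenitor markers. Well M14 had 2 UMIs each of Cd4, Cd28 and Cd5 and 1 of Thy1 among 20193 UMIs, with 13 UMIs of T lymphocyte markers and 56 of progenitor markers. Both wells held many more progenitor than T lymphocyte marker UMIs. All 95 progenitor/stem wells together held 90 UMIs of T lymphocyte markers, so both also held more of these than most such wells. The Cd5 UMIs of M14 were the only ones among the progenitor/stem cells. Doublets were not called, and whether these wells held more than 1 cell was not tested. The highest total of a well was 3 UMIs among erythroblasts and 2 UMIs among both B lymphocytes and granulocytes.

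Within the 43 T wells the 2 Cd8 chains were found together. Cd8a was detected in 17 wells and Cd8b1 in 17 wells, both in 15, 1 of them alone in 2 wells each, and neither in 24. Cd8a ranged from 0 to 17 UMIs and Cd8b1 from 0 to 15, both with a median of 0. Of the wells without Cd8a, 7.69% held Cd8b1, against 88.2% of the wells with Cd8a. Across the 43 wells, which share a plate and differ in depth, the UMIs of the chains had a Pearson correlation of 0.86 and a Spearman correlation of 0.90. Scaled to the depth of the well the values were 0.85 and 0.88.

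The Cd8 UMIs of a T well, Cd8a and Cd8b1 added, left a gap. They were 0 in 24 wells, 1 in 3 wells and 2 in 2 wells, no well had 3 or 4, and the remaining 14 wells had 5 to 28 with a median of 12.5. The variance of UMIs over wells, divided by the mean, was 7.08 for Cd8a, 7.03 for Cd8b1 and 4.09 for Thy1, against 2.00 for Cd4 and 1.74 to 2.37 for Cd28, Cd2, Cd6 and Cd5. Its median over 1861 genes with at least 20 UMIs in the T wells was 1.36, and 1.88% of them were at or above Cd8a.

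**Figure D2:**
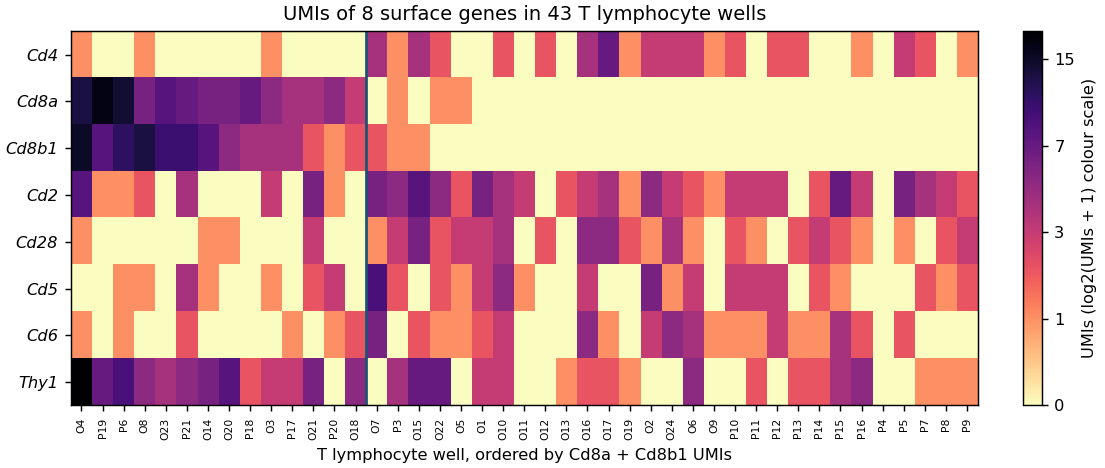
UMIs of the 8 genes (rows) in the 43 T lymphocyte wells (columns), ordered by Cd8a and Cd8b1 UMIs added, with the colour on a log2(UMIs + 1) scale. The vertical line divides the 14 wells with 5 to 28 Cd8 UMIs from the 29 wells with 0 to 2, and the rows of Cd4, Cd28 and Cd6 are paler to its left while Thy1 is darker.

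By detection of at least 1 UMI, 16 of 43 T wells (37.2%, 23.0% to 53.3%) held Cd4 without Cd8, 12 (27.9%, 15.3% to 43.7%) held Cd8 without Cd4, 7 (16.3%, 6.81% to 30.7%) held both and 8 (18.6%, 8.39% to 33.4%) held neither. In none of the 7 wells with both were both coreceptors high. Wells O3, O4 and O8 had 1 UMI of Cd4 each beside 9, 28 and 19 UMIs of Cd8. Wells O7, O15, O22 and P3 had 1 to 4 UMIs of Cd4 beside 1 or 2 of Cd8. No well held more than 1 UMI of Cd4 together with more than 2 of Cd8. Of the 8 wells with neither, 7 had at least 2345 UMIs. The shares depend on depth, and at 1000 UMIs per well 46.4% of T wells were expected to show neither coreceptor and 2.42% both.

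**Figure D3:**
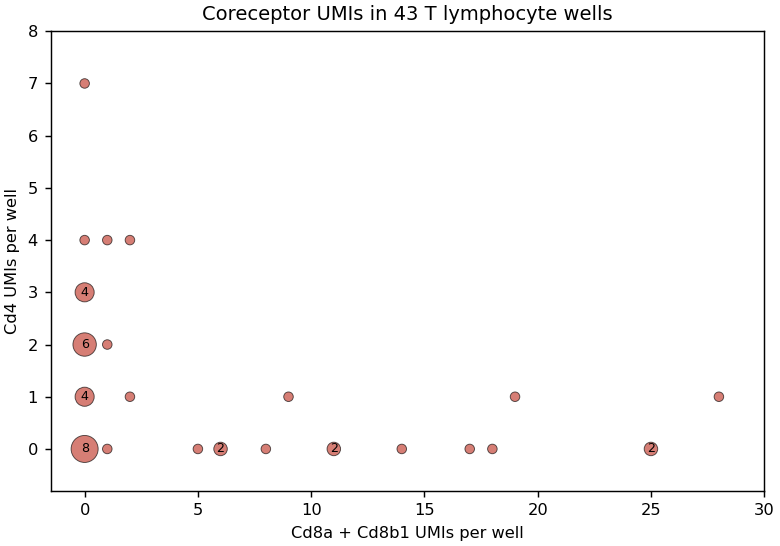
Cd4 UMIs (vertical axis) against Cd8a and Cd8b1 UMIs added (horizontal axis) in the 43 T lymphocyte wells, each on a linear scale. The area of a point grows with the number of wells, which is printed where it is above 1. The points lie along the axes: wells with 5 or more Cd8 UMIs have 0 or 1 Cd4 UMI.

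The other genes were then compared between the 14 wells with 5 to 28 Cd8 UMIs and the 29 wells with 0 to 2. The division was chosen after the values were seen, from the gap described, with 5 wells of 1 or 2 UMIs just below it and 1 well of 5 UMIs just above. These are ranges of 1 measure within 1 sample, and no test was made. The 14 wells were deeper, with a median of 5389 UMIs against 4232. All 6 remaining genes differed by at least 2-fold in CPM, 5 of them lower and 1 higher. The share of all 583 genes with at least 50 UMIs that did so was 6.00%, with 3.95% lower and 2.06% higher, and their median log2 ratio was 0.00 to 2 decimals, with the 5th and 95th percentiles at -0.87 and 0.79.

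Cd4 was lower in the 14 wells by the widest margin. It had 0 to 1 UMI per well there, in 3 of 14 wells, and 0 to 7 with a median of 2 in the 29 wells, in 20 of them. This gave 38.7 CPM against 406.7 CPM, a log2 ratio of -3.39 (-5.72 to -1.76). Cd28 had 0 to 3 UMIs per well with a median of 0 against 0 to 6 with a median of 2, and its log2 ratio was -2.63 (-4.13 to -1.42) from 6 and 59 UMIs. Cd4 and Cd28 were 2 of the 4 genes among the 583 that differed by 4-fold or more, beside Itm2a and 5830444F18Rik. The wells of the 2 ranges overlapped for both genes.

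Cd6 had a log2 ratio of -1.95 (-3.24 to -0.86), with 0 to 2 UMIs per well against 0 to 6. Cd5, of the same family, had -1.36 (-2.36 to -0.47), with 0 to 4 UMIs per well against 0 to 9. Cd2 had -1.22 (-1.90 to -0.58), with a median of 1 UMI against 3. These 3 genes were thus lower in the 14 wells although those wells were deeper. With the 5 wells of 1 or 2 Cd8 UMIs moved across, also tried after seeing the data, the log2 ratios were smaller, at -1.07 for Cd6, -0.48 for Cd5, -0.38 for Cd2, -1.02 for Cd28 and -1.43 for Cd4. At 1000 UMIs per well the expected share of wells with a UMI was 9.10% against 30.4% for Cd6, 13.7% against 30.9% for Cd5 and 20.2% against 54.1% for Cd2.

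Thy1 went the other way, with 0 to 19 UMIs per well and a median of 5 in the 14 wells against 0 to 7 and a median of 1 in the 29. It was at 1059 CPM against 431.1 CPM, a log2 ratio of 1.30 (0.78 to 1.82), and was detected in 13 of 14 wells against 18 of 29. Well O4, with 19 Thy1 UMIs, was also the deepest T well and the one with the most Cd8 UMIs. Thy1 UMIs had a Pearson correlation of 0.67 with Cd8a and 0.70 with Cd8b1 over the 43 wells, and Spearman correlations of 0.60 and 0.62. Thy1 UMIs and depth had a Pearson correlation of 0.57. Without well O4, an alternative chosen after seeing the data, the log2 ratio of Thy1 was 1.13.

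**Figure D4:**
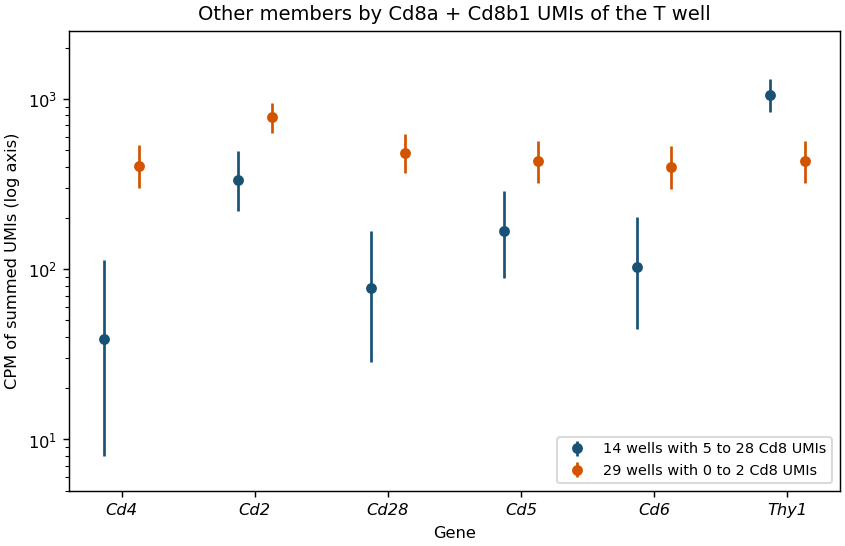
CPM of summed UMIs (log axis) of the 6 remaining genes in the 14 T lymphocyte wells with 5 to 28 Cd8 UMIs and the 29 wells with 0 to 2, with 95% exact Poisson intervals (counting error only). Cd4, Cd2, Cd28, Cd5 and Cd6 are lower in the 14 wells and Thy1 is higher, at 1059 against 431.1 CPM.

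Regulators of the coreceptor genes were set beside this division, with names chosen after their values were seen. Of the 11 listed regulators with at least 20 UMIs in the T wells, 3 were at least 2-fold lower in the 14 wells and 0 higher, where 8.98% of 1859 genes with at least 20 UMIs were lower and 5.38% higher. Zbtb7b, which encodes the CD4 lineage factor ThPOK, had 3 UMIs in the 14 wells and 23 in the 29, a log2 ratio of -2.27 (-4.65 to -0.55). Gata3, a factor needed for CD4 lineage choice, had 3 and 35 UMIs, a log2 ratio of -2.88 (-5.22 to -1.21). Patz1 had 3 and 19 UMIs, a log2 ratio of -2.00 (-4.40 to -0.23). Runx1, Cbfb, Tox, Bcl11b, Tcf7, Satb1, Ikzf1 and Myb differed by less than 2-fold, with log2 ratios of -0.94 (Satb1) to -0.07 (Cbfb). Runx3, the factor of the CD8 lineage, was below the minimum of 20 UMIs and was added by name. It had 4 UMIs in 3 of the 14 wells and 0 in the 29, with a lower limit of the log2 ratio of 0.07. The lineage roles named are background, and whether the wells differ in lineage was not tested. Of the 8 maturation genes with at least 20 UMIs, Itm2a (-2.94, -4.43 to -1.75) and Il7r (-1.30, -2.46 to -0.27) were at least 2-fold lower and 0 were higher. Ms4a4b was close to that threshold on the other side at 1.00 (0.58 to 1.42).

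CD3 fluorescence, recorded for each cell at sorting, is a protein measure that does not enter the counts. The 14 wells with 5 to 28 Cd8 UMIs had a median of 8933 (5865 to 12426, arbitrary units) and the other 29 a median of 12656 (4889 to 25573). The 15 wells highest in CD3 held 0 to 2 Cd8 UMIs each and 5 in all, and the 15 lowest held 0 to 25 each and 80 in all. Cd4 was detected in 9 wells of each of these sets. Of the 14 wells with 5 to 28 Cd8 UMIs, 0 were among the 15 highest and 6 among the 15 lowest. Most of the 209 Cd8 UMIs lay in the wells between these sets, so Cd8 did not fall steadily with CD3. Scaled to depth, the Spearman correlation with CD3 fluorescence was -0.28 for Cd8a and -0.25 for Cd8b1. For the 21 wells above the median of 10475 over the 22 at or below it, the log2 ratio was -0.92 (-1.36 to -0.49) for the 2 Cd8 chains together, -1.02 (-1.66 to -0.41) for Cd8a and -0.82 (-1.46 to -0.20) for Cd8b1. Wells with 5 or more Cd8 UMIs numbered 4 above and 10 at or below the median.

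Cd5 was the 1 gene higher above the CD3 median with an interval apart from 0, at 444.1 against 226.8 CPM and a log2 ratio of 0.97 (0.21 to 1.76). It was nevertheless found in 13 wells on each side. Cd6 (0.73, -0.08 to 1.56), Cd28 (0.56, -0.18 to 1.33), Cd2 (0.40, -0.14 to 0.94), Cd4 (0.33, -0.51 to 1.16) and Thy1 (0.14, -0.37 to 0.65) had intervals that included 0, so that differences of the size of the upper bounds could not be told from none. The 8 genes together had 0.06 (-0.16 to 0.28). The sign of Thy1 and of the 8 together changed under other groupings or weightings of the wells. Depth was lower above the median, with medians of 4185 and 4708.5 UMIs.

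**Figure D5:**
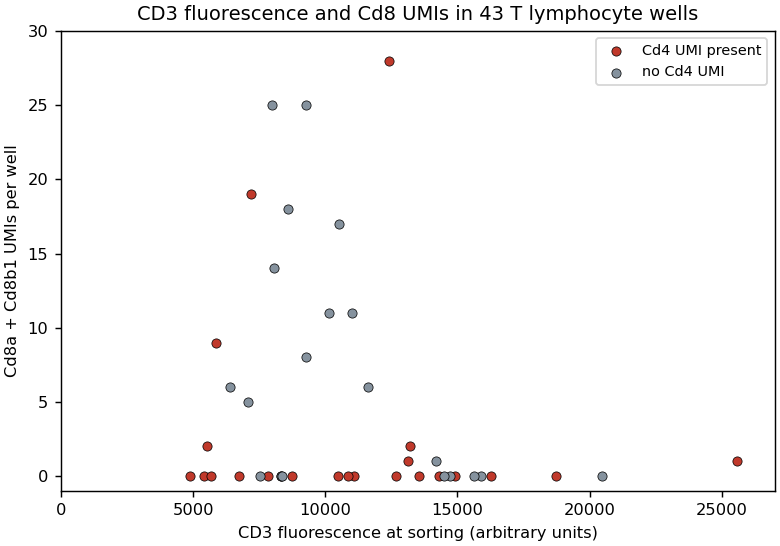
Cd8a and Cd8b1 UMIs added (vertical axis) against CD3 fluorescence at sorting in arbitrary units (horizontal axis) in the 43 T lymphocyte wells, with wells that held a Cd4 UMI in red. Of 209 Cd8 UMIs, the 15 wells highest in CD3 hold 5 and the 15 lowest hold 80, with the rest in the wells between.

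Co-detection among the remaining genes was uneven. Cd4 was found with Cd2 in 21 of its 23 wells and with Cd28 in 18. Cd28 was detected in 78.3% of wells with Cd4 and 45.0% of wells without it. Of the 26 wells with Cd5, 25 held Cd2. No T well held all 8 genes, 3 wells held 7, and the median was 5. These shares rise with the depth of the well.

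The genes whose levels over the 5 populations were most like the 8 summed, by the cosine of their CPM among 577 genes with at least 50 UMIs in the T lymphocytes, included Nsg2 (0.9997), Ifi213 (0.9996), Camk4 (0.9994) and Gbp4 (0.9994). Among the 8, the cosine with the sum of all was lowest for Cd2 (0.991) and Cd4 (0.994), the genes with the highest levels outside the T lymphocytes relative to their own.

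Partners of these proteins were read from lists. All 6 measured genes of the T cell receptor complex were at least 4-fold higher in the T lymphocytes than in each other population, among them Trbc2 at 2271 CPM, Trac at 1322 CPM and Trbc1 at 813.4 CPM. Among genes of proximal signalling, Fyn, Zap70 and Lat (768.5 CPM) met this. Lck, the kinase bound by both coreceptors, had 9 UMIs in 7 T wells and did not with the floor of 3 UMIs. Ptprc, the most abundant of this list at 2904 CPM, did not either. Of 8 other costimulatory and coinhibitory receptor genes with at least 10 UMIs over the 5 populations, 1 met it (Cd96). Cd27 (279.4 CPM), Cd84 (264.5 CPM) and Btla (114.8 CPM), the most abundant of them in T lymphocytes, did not. Tnfrsf4, Tnfrsf9, Tnfrsf18 and Slamf1 held 8 to 14 UMIs in the T lymphocytes, too few to reach 4-fold over the floor in the B lymphocytes.

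The ligands were distributed otherwise. None of 8 tested was at least 4-fold higher in the T lymphocytes than in every other population, and 4 were at least 4-fold higher in another population. The class II genes bound by CD4 were highest in the B lymphocytes, at 692.2 CPM for H2-Aa, 544.9 CPM for H2-Ab1 and 493.3 CPM for H2-Eb1, against 39.9, 9.98 and 29.9 CPM in the T lymphocytes. Alcam, the ligand of CD6, was at 79.1 CPM in the progenitor/stem cells with 1 UMI in the T lymphocytes. B2m, the light chain of class I, was at 3144 CPM in the T lymphocytes, with H2-K1 at 159.7 CPM and H2-D1 at 49.9 CPM.

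Genes of the stage with both coreceptors were scarce in the T wells. Of 5 measured, Rag1, Rag2, Cd1d1 and Arpp21 had 0 UMIs, which by the rule of 3 wells allows a share of up to 6.98% of the T wells with a UMI, and Dntt had 11 UMIs in 8 wells. Rag1, Dntt and Cd1d1 were at least 4-fold higher in another population. Of 10 maturation genes, Ms4a4b (1003 CPM), Ms4a6b (668.7 CPM), Ccr7 and Itm2a were at least 4-fold higher in the T lymphocytes than in each other population, and Cd24a, which falls as thymocytes mature, was at least 4-fold higher in another population with 5 UMIs in the T wells. Of 11 regulators, 5 were at least 4-fold higher in T lymphocytes (Tcf7 at 1282 CPM, Satb1 at 1113 CPM, Bcl11b at 1018 CPM, Gata3 and Tox) and Myb was at least 4-fold higher in another population.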

How the data were processed

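The deposited values are UMI counts of the authors, whole numbers for each gene in each well, without normalization. Per the paper's methods, scPipe aligns reads, assigns them to exons, demultiplexes them by designed barcodes and collapses UMIs. The aligner version, build, annotation and use of strand for this plate were not given in the sources used here, and the labels give contradictory layouts of read 1. The counts were used as deposited, for 374 wells, with 9 columns that match no sample left out. Symbols and coordinates are from GENCODE M21 (GRCm38), which may differ from the authors' build. ERCC spike-ins, 6.76% of UMIs, were left out. UMIs were summed per population and scaled to CPM with Python 3.11.15, numpy 2.4.6, pandas 2.3.3 and scipy 1.17.1. Intervals are 95% exact Poisson (sums), Clopper-Pearson (shares), conditional binomial (ratios) and conditional odds ratio intervals. For fold calls, sums under 3 UMIs were set to 3. Shares at 1000 UMIs per well are hypergeometric expectations, without shallower wells. Each population is 1 sample and cells are not replicates, so no p-value was computed. The members and lists were chosen with earlier results of these data known. Named from a list were its 3 genes with the most UMIs in T lymphocytes, and those with at least 10 UMIs that were at least 4-fold higher elsewhere. Genes were also named by likeness, among the 5 most alike. Some genes that these rules name are not reported here. Other names were added after their values were seen. Doublets were not called. R 4.3.3 with scran 1.30.0 and edgeR 4.0.16 gave size factors for alternatives only. The interval code was tested on simulated data. In all, 38 alternatives were planned and 5 were added after the data were seen.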

Additional observations from a re-analysis of the deposited data

How the results depend on the processing

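No paired analysis was possible because the results come from no test. All 8 genes were called against each other population in every alternative that recomputed the count, except that 7 were at least 8-fold higher than in B lymphocytes, where Cd2 was not. Their summed level in T lymphocytes was 2937 CPM with scran size factors, 2810 with TMM factors, 4248 without Gm42418 and 3211 with ERCC included. With scran and TMM factors the log2 ratio was 5.27 and 5.21 against granulocytes and 5.81 and 5.84 against erythroblasts. Scran factors thus shifted the summed ratio by -0.15 against B lymphocytes, 0.15 against progenitor/stem cells, -0.68 against granulocytes and -0.87 against erythroblasts. Without B lymphocyte wells A8 and B2, the summed log2 ratio against B lymphocytes was 4.13, and with them it was 4.15. At 4-fold and at least 10 UMIs, genes called against B lymphocytes, progenitor/stem cells, granulocytes and erythroblasts numbered 221, 345, 976 and 1524. The genes tested numbered 5441, 9911, 6756 and 7266. In the same order and of the same tested genes, 1180, 1036, 2644 and 2747 were called at 2-fold and 65, 169, 284 and 887 at 8-fold. With at least 50 UMIs, 79, 112, 160 and 291 were called at 4-fold. The number tested at other minimum UMIs is not given here. With at least 1 UMI the number called was 6084 against progenitor/stem cells and 2458 against erythroblasts. The floor of 3 UMIs is 15.0 CPM in the T lymphocytes and 3.59 CPM in the progenitor/stem cells. Genes with at most 3 UMIs in both, even 0 in T lymphocytes, were thus called by the floor alone, so 6084 is not a count of genes higher in T lymphocytes. With scran factors the number called was 432 against granulocytes and 979 against erythroblasts. T wells with both coreceptors were 2.33% when 2 UMIs of a gene were required, 2.42% at 1000 UMIs per well and 6.17% at 2000. At 1000 UMIs per well, wells with Cd4 alone were 20.5% and with neither 46.4%. The log2 ratio of Cd8 by CD3 fluorescence was -1.64 as a mean over wells, -3.75 between the 15 highest and the 15 lowest wells and -1.36 without the well with the most UMIs on each side. In an alternative chosen after seeing the data, with wells of 1 or 2 Cd8 UMIs counted among the Cd8 wells, the log2 ratio was -1.43 for Cd4, -0.38 for Cd2 and -1.02 for Cd28. By CD3 fluorescence, the ratio of Thy1 (0.14 as reported, with an interval that includes 0) became -0.18 as a mean over wells, -0.12 between the 15 highest and lowest wells and -0.08 without the top wells, and that of the 8 genes together (0.06) became -0.12, -0.04 and 0.00. No other ratio changed sign. Why values moved was not tested beyond the construction of each alternative. With 53 to 135 UMIs per gene in 43 wells, a well without a UMI is not shown to lack the transcript.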
